A study of Mus musculus with 4 samples.

Results

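The interferon sensing and response genes described here are 36 mouse genes listed by role: receptor subunits, transcription factors of the STAT and IRF families, cytoplasmic RNA sensors, and genes that interferon switches on. Probes were assigned to them by the RefSeq accession printed on the array, which gave 48 probes for 34 of the 36 genes, out of 33378 genes or transcripts on the array. No probe carried an accession of Mx1 or Mx2. A gene with several probes was represented by its brightest probe on average, and all 34 genes were among the 21216 tested, with 33 of them well above background on all 4 arrays; the exception, Irf2, was not well above background in ES cells.

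The study profiled RNA from induced pluripotent stem (iPS) cells made from adult bone marrow, beside the bone marrow and embryonic stem (ES) cells, on single-colour microarrays. The ES cells were the E14 line of strain 129. The 2 iPS lines, 7 and 13, had been derived from bone marrow mononuclear cells (BMMNCs) of C57BL/6 mice that carried an Oct4-EGFP transgene, and the BMMNCs were C57BL/6 cells with no genetic modification labelled. ES and iPS cells were grown on irradiated embryonic fibroblast feeders in medium with LIF, and most feeders were removed on gelatin before RNA was taken. ES cells and BMMNCs each had 1 array and the iPS cells 1 array per line, so each iPS line is 1 clone, and p-values measure only the spread between the lines. Strain, the transgene and cell origin differ together between ES and iPS cells and cannot be told apart.

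Interferons are secreted proteins that warn cells of viral infection. Type I interferon binds the receptor subunits encoded by Ifnar1 and Ifnar2, and interferon gamma those encoded by Ifngr1 and Ifngr2; Janus kinases then activate STAT proteins. A complex that holds STAT2 and IRF9 binds the interferon-stimulated response element (ISRE) in the promoters of response genes, while the gamma-activated site (GAS) serves interferon gamma. RIG-I-like receptors detect viral RNA in the cytoplasm and lead to interferon production. Pluripotent cells are known for a weak interferon response.

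Promoter windows were searched for the letters of the ISRE and the GAS. RefSeq windows on GRCm38.p6, from 250 bases before to 50 bases after a transcript start, were present for 31 of the 36 genes, in 38 windows; Il10rb, Dhx58, Usp18, Mx1 and Mx2 had none. Ddx58 and Bst2 stood above ES cells in both iPS lines, Ifit1 above BMMNCs, and Isg15 and Rsad2 below BMMNCs. The windows of these 5 genes are printed, all with a match to the ISRE letters, which 14 of the 31 genes held. Each is written 5′ to 3′ on the strand of the gene, with matches to the ISRE letters (GAAA, then any 2 bases, then GAAA), on that strand or its complement, in capitals. Ddx58 lies at chr4:40239776-40240075 on the minus strand, Bst2 at chr8:71537423-71537722 on the minus strand, Ifit1 at chr19:34640639-34640938 on the plus strand, Isg15 at chr4:156200769-156201068 on the minus strand, and Rsad2 at chr12:26456403-26456702 on the minus strand.
Ddx58: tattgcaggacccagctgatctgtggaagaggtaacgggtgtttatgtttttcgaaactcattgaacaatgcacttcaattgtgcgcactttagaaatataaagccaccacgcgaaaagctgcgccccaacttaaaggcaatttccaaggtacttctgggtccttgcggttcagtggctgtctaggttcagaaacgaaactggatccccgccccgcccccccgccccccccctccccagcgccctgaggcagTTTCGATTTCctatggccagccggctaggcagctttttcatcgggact
Bst2: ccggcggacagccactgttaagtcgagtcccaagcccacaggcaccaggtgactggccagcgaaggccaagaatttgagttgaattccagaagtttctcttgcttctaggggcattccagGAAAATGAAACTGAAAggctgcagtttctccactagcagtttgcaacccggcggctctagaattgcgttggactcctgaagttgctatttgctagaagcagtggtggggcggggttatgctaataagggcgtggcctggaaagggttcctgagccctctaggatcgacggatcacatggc
Ifit1: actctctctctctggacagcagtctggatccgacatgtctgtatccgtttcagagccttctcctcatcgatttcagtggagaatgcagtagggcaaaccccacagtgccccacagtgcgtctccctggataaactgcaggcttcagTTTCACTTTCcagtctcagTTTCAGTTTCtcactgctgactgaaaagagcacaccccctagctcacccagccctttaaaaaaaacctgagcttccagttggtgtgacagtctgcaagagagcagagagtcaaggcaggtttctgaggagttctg
Isg15: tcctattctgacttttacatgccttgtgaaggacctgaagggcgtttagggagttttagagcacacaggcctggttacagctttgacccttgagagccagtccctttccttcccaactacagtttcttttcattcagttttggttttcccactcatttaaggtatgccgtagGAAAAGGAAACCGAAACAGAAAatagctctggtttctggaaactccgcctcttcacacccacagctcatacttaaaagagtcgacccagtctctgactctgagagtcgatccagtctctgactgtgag
Rsad2: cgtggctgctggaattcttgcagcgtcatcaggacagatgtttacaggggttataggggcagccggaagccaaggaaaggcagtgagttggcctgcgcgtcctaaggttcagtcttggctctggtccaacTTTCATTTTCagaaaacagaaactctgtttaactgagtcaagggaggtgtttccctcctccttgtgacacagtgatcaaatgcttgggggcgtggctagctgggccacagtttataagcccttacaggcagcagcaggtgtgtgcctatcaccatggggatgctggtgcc
In Isg15, 3 matches overlapped from base -78 to base -57 relative to the start. Bst2 held 2 overlapping matches from -130 to -115, Ifit1 held 2 separate ones at -104 to -95 and -85 to -76, Rsad2 held 1 at -120 to -111, and Ddx58 held 1 at bases 3 to 12, after the start. Over all members, 14 of the 38 windows (36.8%) matched the ISRE letters, against 3.44% of all 32851 windows of this length, and 12 (31.6%) matched the GAS letters TTCNNNGAA on either strand, against 8.3% of all windows. The ISRE letters were found for 10 of 18 response genes, both RNA sensors with a window, 2 of 7 transcription factors (Irf2 and Stat2) and 0 of 4 receptor genes. Such a match is a description of letters in the window.

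Values below are log2 processed signals minus the 75th percentile of the array, called levels, so a level of 0 is a probe as bright as that percentile. A difference of 1 is 2-fold. Levels of different probes are not set against each other, except in the summed levels of cell type markers. Tests are limma's, with p-values adjusted over all 21216 genes by the Benjamini-Hochberg method and called at 0.05. Only the 2 iPS lines give a spread, and the lone arrays of the other groups are assumed to share it. The iPS comparisons with BMMNCs and with ES cells share the iPS arrays.

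Most of the interferon genes were lower in iPS cells than in BMMNCs. Of the 34 genes, 24 fell, 5 rose and 5 did not pass the threshold. Among all genes tested, 75.6% passed in this comparison, 37.4% lower and 38.3% higher in iPS cells, so the total of 29 members that passed lies near the background, while their directions were 70.6% lower and 14.7% higher. The median difference was -1.54 over the members and 0.01 over all genes. Receptors (5 of 5) and transcription factors (7 of 7) all fell, 2 of 3 RNA sensors fell and 1 rose, and the 19 response genes were divided into 10 that fell, 4 that rose and 5 that did not pass. At least a 4-fold difference in both lines was met by 11 members, all lower, against 30.2% of all genes by that rule, 14.9% lower and 15.3% higher.

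**Figure D1:**
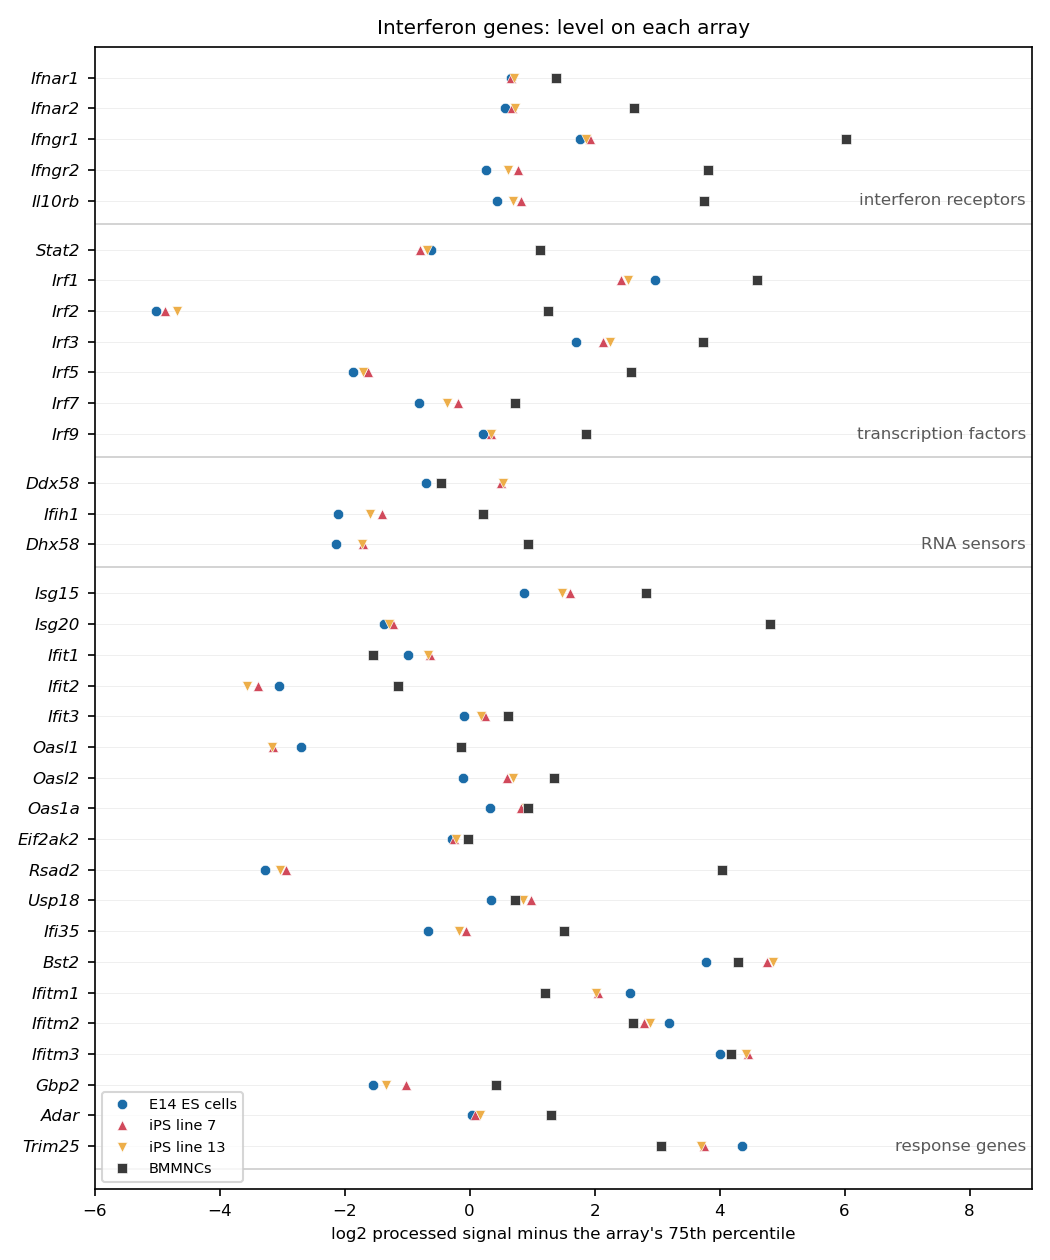
Level of each of the 34 interferon genes (log2 signal relative to the 75th percentile of its array) on the ES, iPS line 7, iPS line 13 and BMMNC arrays, grouped by role, 1 point per array; the ES point of Irf2 is not well above background. The 2 iPS lines lie close to each other and mostly close to ES cells, and the BMMNC point lies apart on the high side for the receptors and transcription factors.

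All 5 receptor genes were lower in ES and iPS cells than in BMMNCs. Ifngr1, the ligand-binding chain for interferon gamma, was at 1.76 in ES cells, 1.93 in line 7, 1.87 in line 13 and 6.02 in BMMNCs. The 3 pluripotent samples were within 0.2 of one another and far below BMMNCs, and in iPS cells the gene fell by 4.12 (SE 0.10, 17.3-fold, limma adjusted p 0.000782). Its partner chain Ifngr2 was at 0.26, 0.78, 0.62 and 3.81 in the same order of samples, a fall of 3.11 (SE 0.12, 8.63-fold, limma adjusted p 0.00128). A dimmer probe of Ifngr2 differed by only -1.07, so the size depends on the probe.

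Il10rb encodes a chain shared by the receptors for interleukin 10 and for lambda interferons. Its levels were 0.44 in ES cells, 0.82 and 0.70 in iPS lines 7 and 13, against 3.75 in BMMNCs, and it fell by 2.99 in iPS cells (SE 0.11, 7.94-fold, limma adjusted p 0.0012). BMMNCs again stood alone on the high side. The type I receptor chains differed less by their brightest probes. Ifnar2 was at 0.57, 0.68, 0.72 and 2.63 and fell by 1.93 (SE 0.09, limma adjusted p 0.00169), while a dimmer probe of it differed by -4.00. Ifnar1 was at 0.66, 0.67, 0.71 and 1.38 and fell by 0.69 (SE 0.09, 1.61-fold, limma adjusted p 0.0115), the smallest change of the receptors.

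Ifnar2, Il10rb, Ifnar1 and Ifngr2 follow each other on mouse chromosome 16 in the RefSeq gene order, and all 4 fell, by between 0.69 and 3.11. The Ifit genes on chromosome 19 and the Ifitm genes on chromosome 7 are other groups of related genes close together, and these were less uniform: Ifit1 rose while Ifit2 and Ifit3 fell, and of the 3 Ifitm members Ifitm1 rose and the other two did not pass.

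**Figure D2:**
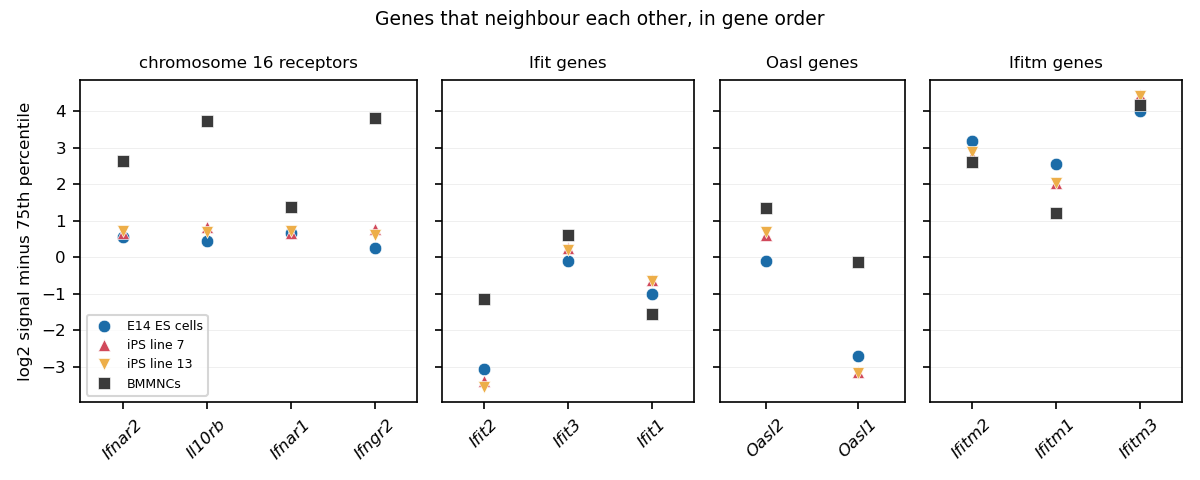
Levels (log2 signal relative to the 75th percentile of each array) of interferon genes that lie near each other on chromosomes 16, 19, 5 and 7, in gene order along the horizontal axis, with 1 point per array. All 4 receptor genes on chromosome 16 are higher in BMMNCs, whereas Ifit1 lies lowest in BMMNCs and Ifit2 and Ifit3 lie highest there.

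The 7 transcription factor genes were all lower in iPS cells than in BMMNCs. Irf2, which competes with IRF1 for the same DNA sites, was at -5.02 in ES cells, where it was not well above background, at -4.88 and -4.68 in the iPS lines, and at 1.25 in BMMNCs. It was thus dim in every pluripotent sample, and fell by 6.03 in iPS cells (SE 0.14, 65.4-fold, limma adjusted p 0.000771). Irf2 was at least 77.1-fold higher in BMMNCs than in ES cells, where the ES value is only a bound. Irf5, a factor active in myeloid and B cells downstream of toll-like receptors, was at -1.86, -1.63, -1.70 and 2.59 and fell by 4.25 (SE 0.10, 19.1-fold, limma adjusted p 0.00078). Its ES and iPS levels were within 0.24 of each other.

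Irf1, an activator induced by interferon gamma, was at 2.96 in ES cells, 2.43 and 2.53 in iPS lines 7 and 13, against 4.60 in BMMNCs. Both iPS lines lay below ES cells as well as below BMMNCs, and the fall from BMMNCs was 2.12 (SE 0.11, 4.34-fold, limma adjusted p 0.00176); the mean of both its probes gave -1.56. Stat2 and Irf9 encode factors that carry the type I signal to the ISRE. Stat2 was at -0.61, -0.79, -0.68 and 1.12 and fell by 1.86, and Irf9, its DNA-binding partner, was at 0.22, 0.34, 0.34 and 1.87 and fell by 1.53, with -0.53 from a dimmer probe. Irf3, which acts downstream of the sensors, was at 1.71, 2.13, 2.24 and 3.73 and fell by 1.54. Irf7, which amplifies interferon production, was at -0.81, -0.19, -0.36 and 0.72 and had, by the brightest probes, the smallest fall of the 7, 0.99 (SE 0.13, 1.99-fold, limma adjusted p 0.0103).

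Of the RNA sensors, Ddx58 went the other way from its relatives. Ddx58 encodes RIG-I, which recognises viral RNA with a triphosphate end. Its level was -0.69 in ES cells, 0.51 in line 7, 0.53 in line 13 and -0.45 in BMMNCs. Both iPS lines stood above both other samples, which were 0.24 apart, and the gene rose by 0.97 against BMMNCs (SE 0.09, 1.95-fold, limma adjusted p 0.00545). Fitted with the ES array in the same group as the iPS lines, the difference was 0.56 (limma adjusted p 0.474) and the call was lost. Ifih1, which encodes the long-RNA sensor MDA5, was at -2.10, -1.40, -1.60 and 0.22 and fell by 1.72 (SE 0.14, 3.3-fold, limma adjusted p 0.00373). Dhx58, which encodes LGP2, a regulator of the other sensors, was at -2.14, -1.71, -1.72 and 0.93 and fell by 2.64 (SE 0.09, 6.24-fold, limma adjusted p 0.0011). For these 2 genes BMMNCs stood far above every pluripotent sample.

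The response genes with the largest differences were Rsad2, Isg20 and Oasl1. Rsad2 encodes viperin, an enzyme that makes a chain-terminating nucleotide. It was at -3.27 in ES cells, -2.94 in line 7, -3.04 in line 13 and 4.04 in BMMNCs, and fell by 7.03 (SE 0.11, 131-fold, limma adjusted p 0.000706). The other probes of Rsad2 gave -6.13 and -6.08, so all 3 probes separated BMMNCs from the pluripotent samples. Isg20, an exonuclease that degrades viral RNA, was at -1.37, -1.22, -1.29 and 4.81 and fell by 6.06 (SE 0.10, 66.8-fold, limma adjusted p 0.000706). Oasl1, a relative of the oligoadenylate synthetases that limits Irf7 translation, was at -2.70, -3.15, -3.16 and -0.13 and fell by 3.03 (SE 0.09, 8.15-fold, limma adjusted p 0.000958). In Oasl1 both iPS lines lay below ES cells too.

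The other response genes that fell had smaller differences, from -0.40 in Ifit3 to -2.32 in Ifit2. Isg15, a ubiquitin-like protein attached to other proteins, was at 0.87, 1.61, 1.48 and 2.82 in ES cells, line 7, line 13 and BMMNCs, and fell by 1.28 (SE 0.11, 2.42-fold, limma adjusted p 0.00453). Its iPS levels lay between those of ES cells and BMMNCs. Ifi35 differed by -1.62, the guanylate-binding protein gene Gbp2 by -1.60 and Adar, an RNA editing enzyme, by -1.18, although a dimmer probe of Adar differed by only -0.22. Oasl2 fell by 0.70.

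The 4 response genes that rose against BMMNCs were Ifit1, Ifitm1, Trim25 and Bst2. Ifit1, which binds viral RNA that lacks a host cap, was at -0.99 in ES cells, -0.63 and -0.66 in iPS lines 7 and 13, against -1.54 in BMMNCs. All pluripotent samples were above BMMNCs, and the rise was 0.89 (SE 0.09, 1.85-fold, limma adjusted p 0.0065). Ifitm1, a membrane protein that blocks virus entry, was at 2.57, 2.05, 2.03 and 1.21 and rose by 0.83 (SE 0.09, 1.77-fold, limma adjusted p 0.00757). Trim25, the ubiquitin ligase that activates RIG-I, was at 4.36, 3.75, 3.71 and 3.06 and rose by 0.67 (SE 0.10, 1.59-fold, limma adjusted p 0.0124). For Ifitm1 and, by its brightest probe, Trim25, ES cells were the highest sample. A dimmer Trim25 probe was at 0.55 in ES cells and 0.63 and 0.74 in iPS lines 7 and 13. Bst2 encodes tetherin, a protein that holds budding virus at the cell surface. It was at 3.78, 4.76, 4.85 and 4.29 and rose by 0.52 (SE 0.10, 1.43-fold, limma adjusted p 0.026). Here both iPS lines were above BMMNCs and ES cells below, as for Ddx58, Usp18 and Ifitm3. Such opposite sides, in this or the reverse direction, were found for 6.63% of all genes. With the ES array in the iPS group, where 61.3% of all genes passed, 23 members did. Of these 4 genes Ifit1 passed there (limma adjusted p 0.0448), and the limma adjusted p was 0.052 for Ifitm1, 0.0961 for Trim25 and 0.788 for Bst2; Ifit3 and Oasl2 were then also lost from the genes that fell. Without the filter on dim probes, where 41.4% of all genes passed, Bst2, Trim25, Ifit3, Oasl2 and Ifnar1 did not pass. Bst2 was also lost with median scaling (0.31, limma adjusted p 0.0859), and Ifit3 in the authors' table (-0.29, limma adjusted p 0.082).

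The 5 response genes that did not pass against BMMNCs were Oas1a, Eif2ak2, Usp18, Ifitm2 and Ifitm3, with differences from -0.21 to 0.27. Eif2ak2, which encodes the kinase PKR that stops translation on double-stranded RNA, was at -0.28, -0.25, -0.22 and -0.02 in ES cells, line 7, line 13 and BMMNCs, a span of less than 0.3 over all samples. Oas1a, a synthetase whose product activates RNase L, was at 0.33, 0.83, 0.91 and 0.94. Its iPS and BMMNC levels nearly coincided, and only the ES sample was lower. Usp18, the protease that removes ISG15 and damps the type I receptor, was at 0.35, 0.99, 0.85 and 0.73. The sign of the difference of Usp18 and of Oas1a turned with the scaling (-0.02 for Usp18 with median scaling, 0.03 for Oas1a in the authors' table).

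**Figure D3:**
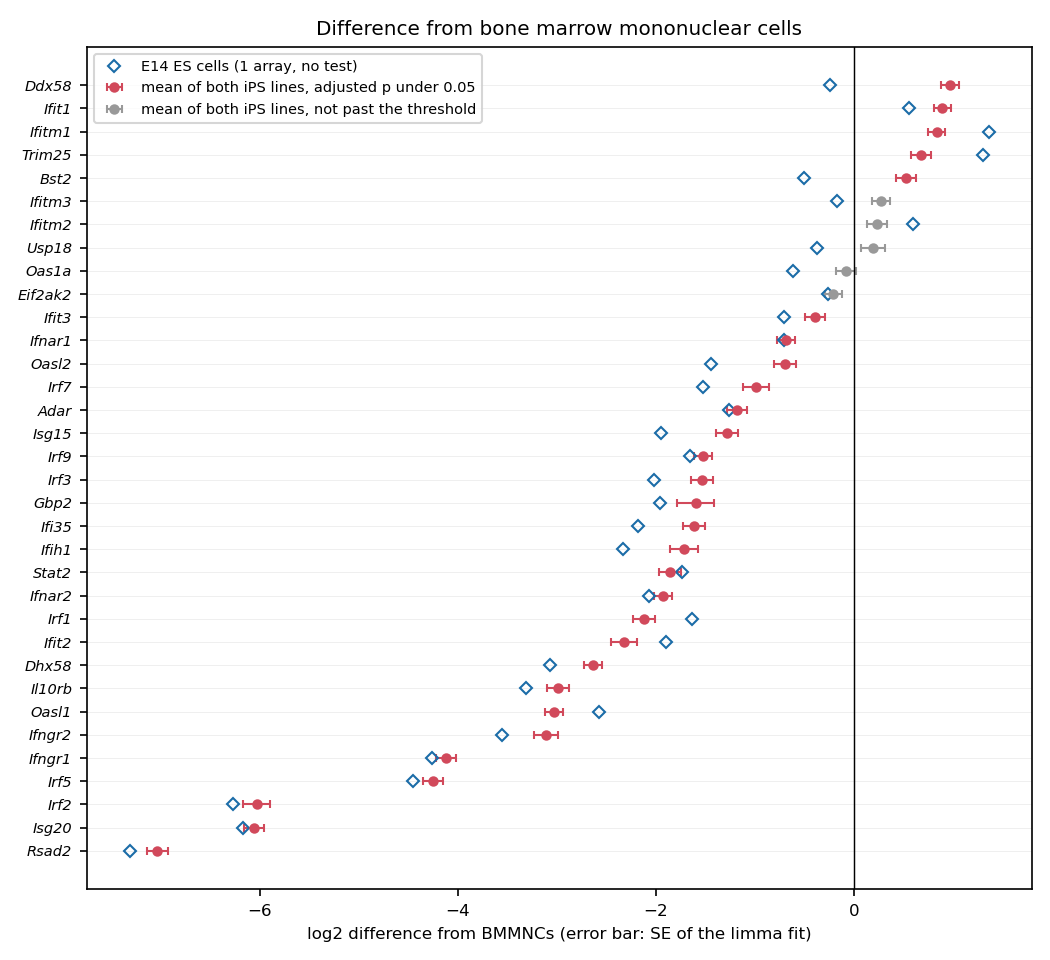
Log2 difference from the BMMNC array of the ES array (open diamonds) and of the mean of both iPS lines (filled circles, with the SE of the limma fit) for the 34 interferon genes, sorted by the iPS difference; red circles passed the threshold and grey circles did not. Most genes lie left of 0 for ES and iPS cells alike, Rsad2, Isg20 and Irf2 farthest, and Ddx58 and Bst2 are to the right for iPS cells and to the left for ES cells.

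ES cells and BMMNCs were described by size alone, as each had 1 array. At least 4-fold lower in ES cells were 13 of the 34 genes and at least 4-fold higher 0, where 15.8% of all genes were lower and 17.3% higher by that rule. The 13 were Ifnar2, Ifngr1, Ifngr2, Il10rb, Irf2, Irf3, Irf5, Ifih1, Dhx58, Isg20, Oasl1, Rsad2 and Ifi35, so 4 of the 5 receptors were among them. The median difference was -1.70 over the members and 0.07 over all genes. Ifit1, Ifitm1, Ifitm2 and Trim25 were the 4 members above BMMNCs in ES cells and both iPS lines, by up to 1.36 (Ifitm1 in ES cells), a pattern found in 45.1% of all genes. ES and iPS differences from BMMNCs share the BMMNC array.

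Between iPS and ES cells, 1 of the 34 genes passed the threshold, Ddx58, against 4.65% of all genes (1.93% higher and 2.72% lower). It rose by 1.21 (SE 0.09, 2.31-fold, limma adjusted p 0.0457) and was 2-fold or more above ES cells in both lines; 6.51% of all genes were 2-fold or more apart in both lines, 2.36% on the high side. A dimmer Ddx58 probe, also well above background, was at -1.79 in ES cells, -0.49 in line 7, -0.62 in line 13 and -2.10 in BMMNCs, a difference from ES cells of 1.24. That probe shows the same separation of the iPS lines from the other samples. The adjusted p of Ddx58 ranged from 2.59e-09 to 0.181 over 8 alternative settings and passed in 5. The count of members that passed also moved with the setting, as did that of all genes. It was 0 in the authors' table and without the filter on dim probes (0% of all genes in each) and on the mean of all probes (3.98%), where limma gave 20, 9 and 18 members an unadjusted p under 0.05. It was 2 with median scaling (5.43% of all genes) and quantile normalization (4.5%), 18 with normexp (26.7%), 23 with an intensity trend (35.6%) and 24 of 33 with probes above background on every array (38.5%). Bst2 was next in size, at 1.03 above ES cells (SE 0.10, 2.04-fold, limma adjusted p 0.0538).

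The members, with Ddx58 among them, lay mostly on the high side of ES cells. Both iPS lines were above ES cells for 27 of the 34 genes and below for 7, against 37.8% and 46.5% of all genes. These shares are not like for like, since 33 of the 34 members but 14859 of the 21216 genes were above background on every array. The counts rest on 1 ES array, and some differences were near 0, such as 0.0038 for Ifnar1 in line 7. A dimmer Adar probe lay below ES cells in both lines. The median difference was 0.29 over the members and -0.05 over all genes. The 5 receptors and 3 sensors were on the high side in both lines, as were 5 of the 7 transcription factors and 14 of the 19 response genes. Among the response genes, Oasl2 differed by 0.75, Isg15 by 0.67, Usp18 by 0.57, Ifi35 by 0.56 and Oas1a by 0.54, with limma adjusted p-values of 0.0714, 0.0837, 0.107, 0.101 and 0.0936. None of these passed. The 7 genes below ES cells in both lines were Stat2, Irf1, Ifit2, Oasl1, Ifitm1, Ifitm2 and Trim25. Trim25 had the largest such difference, -0.63 (limma adjusted p 0.0768), but its dimmer probe was at 0.55 in ES cells and 0.63 and 0.74 in the lines, a difference of 0.14 in the other direction.

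**Figure D4:**
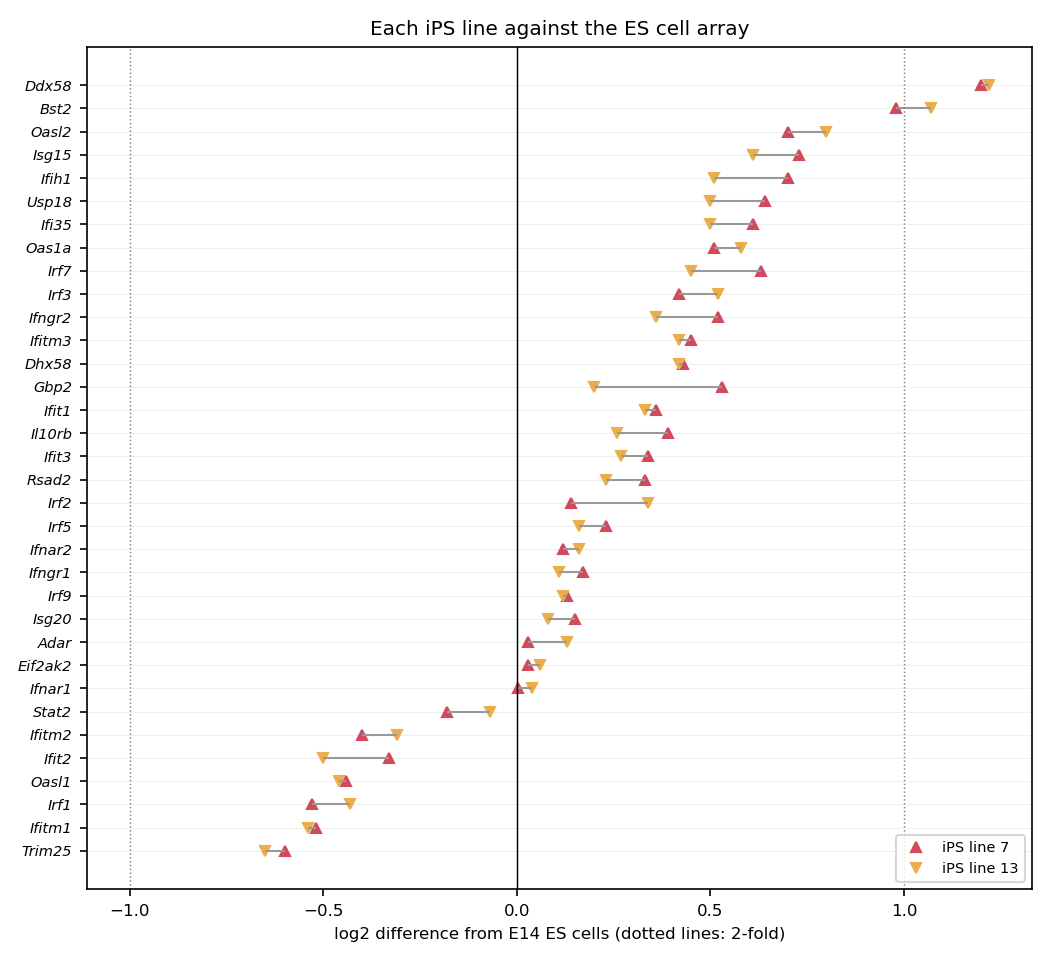
Log2 difference of iPS line 7 and iPS line 13 from the ES array for the 34 interferon genes, sorted by their mean; dotted lines mark 2-fold. For 27 genes both lines lie to the right of 0, and Ddx58 is the gene for which both lines lie beyond 2-fold.

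Lines 7 and 13 gave near-equal levels. At least 2-fold apart were 0 of the 34 genes, against 2.44% of all genes. The median absolute difference between lines was 0.09 for the members, the same as for the 17546 genes above background in both lines. Gbp2, an interferon-induced GTPase that acts on vacuoles of intracellular pathogens, had the largest gap, 0.33, at -1.02 in line 7 and -1.34 in line 13. Its ES level was -1.54 and its BMMNC level 0.42, so the gap between lines did not reach BMMNCs.

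Genes that hold ISRE letters in their window were found in every direction. Of the 14 members with a match, 3 rose against BMMNCs, 7 fell and 4 did not pass, with differences from -7.03 (Rsad2) to 0.97 (Ddx58). Of the 17 members with a window and no match, 2 rose and 15 fell. The median difference of iPS from ES cells was 0.35 with a match and 0.12 without. These are descriptions, with no test. The windows printed above show the range, since Rsad2 and Ifit1 both hold matches in the bases before the start and had differences from BMMNCs of -7.03 and 0.89.

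Of 60 other genes of the pathway, 54 had a probe and 48 were tested. Against BMMNCs 41 fell, 3 rose and 4 did not pass, where 37.4% of all genes fell and 38.3% rose. The median difference was -1.80, beside 0.01 over all genes. Jak1, a kinase bound to the receptors, was at 2.56 in ES cells and fell by 0.92 against its BMMNC level of 3.59 (SE 0.10, limma adjusted p 0.00718). The largest differences measured on both sides were -8.64 in Irf8, a factor of myeloid and dendritic cells, and -7.00 in Il10ra, the ligand-binding chain of the interleukin 10 receptor. On the high side, Socs3, a feedback inhibitor that LIF induces, rose by 2.99. Of the ligands, Ifnb1, Ifna4 and Ifnk were not well above background on any array. Ifng, at -0.22, was well above background in BMMNCs and on no other array, at least 30.7-fold higher there than in iPS cells.

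Against ES cells 1 of the 48 other genes rose and 4 fell by the test, where 1.93% of all genes rose and 2.72% fell. For 1 of the 4, Ifitm6, neither side of that comparison was well above background. Cmpk2, a mitochondrial nucleotide kinase induced by interferon, was not well above background in ES cells and reached -3.37 in line 7 and -3.38 in line 13, with a BMMNC level of 1.67. Its iPS level was at least 2.66-fold higher than that of ES cells (limma adjusted p 0.0442). Cmpk2 lies next to Rsad2 on chromosome 12, and Rsad2 differed by 0.28 from ES cells (limma adjusted p 0.21). Ifnlr1, the lambda interferon receptor chain, fell by 1.59, the DNA sensor gene Cgas by 1.25 and Irf8 by 1.17, with limma adjusted p-values of 0.045, 0.0457 and 0.0463. In BMMNCs these 3 genes were at 2.08, 0.42 and 5.65, above every pluripotent sample. The limma adjusted p of Ifitm6 was 0.0497; it stood well above background in BMMNCs and on no other array, so it gives no fold against ES cells.

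Cell type markers were read beside these results. Of 8 fibroblast markers, which irradiated feeders express, all were well above background in ES and iPS cells, with summed linear levels of 344 in ES cells, 402 and 381 in iPS lines 7 and 13, against 8.54 in BMMNCs; the median marker lay 0.28 and 0.15 above ES cells in lines 7 and 13. Their part in the iPS differences from ES cells or BMMNCs was not tested. Of 8 monocyte and macrophage markers, 5 had a probe and were above background on all arrays. Their summed levels were 24.6, 25.6, 21.3 and 446 in the same order, and most of each sum is Lyz2. By gene, all 5 fell in iPS cells against BMMNCs, with differences from -1.76 (Fcgr1) to -9.14 (Cybb). The granulocyte sums were 0.104, 0.0928, 0.122 and 2203, and the B cell sums 0.782, 0.66, 0.773 and 113. The T and NK cell sums were 0.161, 0.252, 0.13 and 24.6, and the erythroid sums 0.274, 0.173, 0.186 and 1433. Cd3e of the T and NK cell list did not separate the samples, at -3.50, -2.23, -3.47 and -2.50. Of the granulocyte markers, Elane, Ltf, Camp, Ngp, S100a8 and S100a9 stood well above background in BMMNCs and on no other array. Mpo was also well above background in ES cells, at -4.64, and Prtn3 in iPS lines 7 and 13, at -5.04 and -4.56. The sums of 7 pluripotency markers were 571, 452, 459 and 0.27, and Pou5f1, which defines these cells, was at 4.75, 4.73, 4.74 and, not well above background, -7.02. Of these 7 markers, 5 lay lower in iPS than in ES cells, with a median difference of -0.33, and Zfp42 fell from 7.19 in ES cells to 3.37 in line 7 and 3.62 in line 13 (12.9-fold, limma adjusted p 0.0426). Their part in the iPS differences from ES cells was not tested. Cd3e aside, the labelled cell types thus carried their markers. The BMMNC array mixes these blood cells, and a higher level there can be more cells of a type or more RNA per cell, which cannot be told apart.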

How the data were processed

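Cy3-labelled RNA of 4 samples was hybridised to single-colour Agilent arrays, per the labels' protocols, and scanned images were read with Agilent Feature Extraction 9.5, per the submitters' processing notes. The deposited values are intensities, background-subtracted and detrended within each array per the file headers; all 4 arrays were on 1 slide with 1 scan time. The authors' deposited value table holds these intensities, linear and without centring of genes, each array divided by its own factor. The column median was 139.9 for ES cells, 135.9 and 133.6 for lines 7 and 13 and 106.2 for BMMNCs; the basis of the factors is unknown.

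Control spots and 14 of 41174 probes (outlier spots) were left out; no spot was saturated. The share of probes well above background was 57.4%, 59.0%, 56.1% and 54.6% in ES cells, line 7, line 13 and BMMNCs, and precision is limited by how few arrays there are. The log2 intensity was set relative to the 75th percentile of its array. Accessions were named through the RefSeq table of GRCm38.p6, which gave 22948 probes a symbol. A probe above background on at least 1 array was tested. A limma model (version 3.58.1, R 4.3.3) covered all arrays, with means for ES, iPS and BMMNCs and 1 residual degree of freedom. The model was also run on simulated data in which all arrays shared the spread of each gene. That run therefore cannot check whether the lone ES and BMMNC arrays vary like the iPS lines. Size rules alone compared ES cells with BMMNCs and the iPS lines with each other; a test of the former from the same fit was not run.

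A bound, written "at least", sets the bright mean against the higher of the dim probe's own value and the lowest value well above background on that array. Values in every sample were given for members past the threshold or 2-fold apart in both lines against ES cells, and for the 3 members of each role with the largest iPS difference from BMMNCs. Other members were given where they show a family. Other pathway genes were named when past the threshold against ES cells or among the 2 largest differences each way from BMMNCs, with a result that is not reported here left out; Jak1, the ligands and Cmpk2's neighbour were named after their values were seen. Members, lists and rules were chosen with earlier results of these data known. Alternatives were other scalings and background corrections, the authors' table, filters, probe rules, a trend, other groups and leaving out a line. The normexp alternative used each spot's median signal in place of the mean signal.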

Additional observations from a re-analysis of the deposited data

Results flagged for a closer look

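ES cells and both iPS lines lay on opposite sides of BMMNCs, in either direction, for 6.63% of all genes tested. For 4 of the 34 interferon genes, ES cells lay below BMMNCs while both iPS lines lay above them. These genes were picked by that pattern, which fixes the sign of the difference of iPS from ES cells, so the values are a description and the pattern itself was not tested. Ddx58, the RIG-I gene, differed by 1.21 (limma adjusted p 0.0457); a dimmer probe of it lay 0.31 above BMMNCs in ES cells, so the opposite directions hold for its brighter probe. Bst2, the tetherin gene, differed by 1.03 (limma adjusted p 0.0538). Usp18, the ISG15 protease gene, differed by 0.57 (limma adjusted p 0.107), and with median scaling line 13 lay 0.09 on the other side of BMMNCs (-0.09). Ifitm3, which blocks virus entry, differed by 0.44 (limma adjusted p 0.111).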

How the results depend on the processing

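The precision rests on 4 arrays and 1 residual degree of freedom. Against BMMNCs the count of 29 members lay between 23 and 31 in every setting with a test; ES and iPS arrays in 1 group gave 23, no filter on dim probes 24. The 4-fold size rule in place of the p gave 11, and leaving out either line, by that rule, 11 and 11. Against ES cells the count of 1 was 2 with median scaling and with quantile normalization (Bst2 added), 18 with normexp (26.7% of all genes), 23 with an intensity trend (35.6%) and 24 of 33 with probes above background on every array (38.5%). It was 0 with limma on the authors' table, without the filter on dim probes and on the mean of all probes, where 20, 9 and 18 members had an unadjusted p under 0.05. Leaving out a line gave 1 to 2 by the 2-fold rule (Bst2 added without line 7). The cause was not tested. Signs turned for Oas1a against BMMNCs in the authors' table (0.03), Usp18 against BMMNCs with median scaling (-0.02) and Adar against ES cells on the mean of all probes (-0.00027); none was called. The median of all genes, iPS against BMMNCs, was 0.01, and -0.20 with median scaling or normexp and 0.12 in the authors' table. The 4-fold count of ES cells against BMMNCs kept within 11 to 17, and no member was 2-fold apart between lines in any setting run. No paired analysis was possible because ES cells and BMMNCs have 1 array each and the iPS lines carry other numbers.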

Other observations

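The following interferon-inducible GTPases and other response genes outside the 34 members are described after their values were seen. Irgm1, which acts on pathogen vacuoles, was at 1.17 in ES cells, 1.95 in line 7, 1.89 in line 13 and 1.90 in BMMNCs, so that only ES cells stood apart; its difference of iPS from ES cells was 0.75 (limma adjusted p 0.0658). Igtp, of the same family, was at 0.46, 0.77, 0.73 and 2.76 and fell by 2.01 against BMMNCs. Gbp3 was at -1.42, -1.10, -1.23 and 1.64 and fell by 2.81. Of the 5 GTPase genes listed, Igtp, Iigp1, Gbp3 and Gbp5 fell against BMMNCs and Irgm1 did not pass. Parp9, an ADP-ribosylation gene induced by interferon, was at -0.81, -0.31, -0.31 and 0.75, with both iPS lines between ES cells and BMMNCs, and fell by 1.06 against BMMNCs. Ifi44 was at -1.27, -0.72, -0.83 and -3.48 and rose by 2.71 against BMMNCs, with every pluripotent sample above BMMNCs.

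Bst2 and Irf7 are also markers of plasmacytoid dendritic cells, a rare cell type that produces type I interferon. The 6 markers of that list had summed levels of 17.5 in ES cells, 31.1 in line 7, 32.6 in line 13 and 28.3 in BMMNCs. Most of each sum is Bst2 itself. By gene, 5 of the 6 markers fell in iPS cells against BMMNCs and 1, Bst2, rose. Siglech, which defines the cell type, and Ccr9 stood well above background in BMMNCs and on no other array. Klk1, Tcf4, Bst2 and Irf7 did so on all 4 arrays.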
